A study of Mus musculus with 6 samples.

Results

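Basement membranes are thin sheets of extracellular matrix that lie under epithelia and endothelia and around pericytes, muscle and nerve. The 33 genes described here encode their building blocks: the 6 chains of type IV collagen, 10 laminin chains, the linkers nidogen 1 and 2, the proteoglycans perlecan and agrin, collagens XV and XVIII, and 11 associated proteins. They were chosen by gene symbol, as the rows of the deposited table whose single annotated symbol was on the list. All 33 were measured, among 20239 genes with 1 probe set each.

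Expression was measured on 6 one-colour arrays of total RNA from isolated mouse pericytes of strain C57BL/6. Pericytes are mural cells that share a basement membrane with the endothelium of capillaries. On 3 arrays the cultures had received PDGF-BB at 100 ng/ml over 5 days, and on 3 arrays they had received the control, which the labels do not describe further. PDGF-BB is a dimer of the PDGF B chain and the ligand through which endothelial cells act on the pericyte receptor PDGFR-β. In each group the titles number the arrays 1 to 3, without naming separate isolations, animals or cultures, so the spread between arrays may be technical. All values below are log2 expression values from RMA, a method that puts the arrays on a common distribution, and each log2 change subtracts the control mean from the PDGF-BB mean.

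A network of laminins and one of type IV collagen form the frame of a basement membrane. A laminin is a trimer of an α, a β and a γ chain and polymerises at the cell surface, where integrins and dystroglycan bind it. Type IV collagen, also a trimer, forms a covalent network, and nidogens and perlecan connect it to the laminins. In vessels, pericytes and endothelial cells both deposit this matrix.

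The labelled cell type was checked against 10 pericyte markers. Pdgfrb, the PDGF-BB receptor, was abundant, at 12.85 ± 0.09 with PDGF-BB and 12.98 ± 0.11 in control (SD, n = 3 each). Rgs5, Kcnj8, Abcc9 and Des lay close to or under 7.62, which is used below as a background level. It is the 90th percentile of the mean signal of 16 markers of lymphocytes, mast cells and red cell precursors, all taken as absent. By that definition 2 of the 16 lay above it: Cd3e (8.22 with PDGF-BB and 8.27 in control) and Epor (7.94 and 7.97). Of the 10 pericyte markers Anpep rose (log2 change 0.87) and Cd248 fell (-0.33), and Cd248 was no longer called without PDGF-BB array 2 or 3 or control array 2 or 3. With the array number as a block, a fit described below, 2 of these markers rose and 2 fell, Cspg4 (adjusted p = 0.015) and Mcam (adjusted p = 0.023) being added. No endothelial marker of 12 and no epithelial marker of 10 was called in limma (1 and 0 at an unadjusted p under 0.05), and 8 of each list lay under that level, Pecam1, Kdr, Epcam and Cdh1 among them. Of the 4 measured glial markers Mbp fell (-0.51), a call lost without PDGF-BB array 2 or 3 or control array 1 or 2. Of 8 macrophage markers 2 rose, Cd14 (log2 change 0.80) and Mpeg1, at least 2.64-fold since its control mean of 6.24 lay under the background level. Another 2 fell, Cd68 (-0.42) and Lyz2, which lay under that level in both groups (5.80 with PDGF-BB and 6.29 in control). The summed macrophage signal was 10.61 to 10.84 with PDGF-BB and 10.50 to 10.61 in control (log2 of the sum of linear values), and 6 of the 8 by their mean over all arrays, with Adgre1, Csf1r and Ptprc, lay under the background level. Cd68 was not called without PDGF-BB array 1 or 2. All 14 measured proliferation markers rose, with a summed signal of 15.30 to 15.38 with PDGF-BB and 13.70 to 14.64 in control. The count was 8, 7 and 7 without PDGF-BB array 1, 2 and 3. It was 10 without control array 2 and 14 without control array 1 or 3. The part of proliferation or of macrophages in the results below was not tested, and in bulk RNA fewer cells of a type cannot be told from less RNA per cell. Array medians lay between 8.43 and 8.46.

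PDGF-BB was followed by opposite changes within the basement membrane set. Of the 33 members 4 rose, all of them known to carry glycosaminoglycan chains, a grouping made after their values were seen: Col15a1 (4.05-fold), Col18a1 and Agrn (2.48-fold each) and Hspg2 (1.39-fold). The 7 that fell were Smoc2 (3.88-fold lower), Npnt (3.33-fold), Tinagl1 (2.59-fold), Nid2 (2.45-fold), Lama5 (1.75-fold), Lamb2 (1.41-fold) and the dim Frem1. The type IV collagen chains were not called, nor were the laminin chains Lama4, Lamb1 and Lamc1. With the array number as a block 5 members rose, Lamc1 being added (adjusted p = 0.019, limma). A gene was called at an adjusted p under 0.05 in limma's moderated test over all 20239 genes (Benjamini-Hochberg).

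The 11 called members (33.3%) stand against 21.5% of all genes. In the higher direction the background was 10.1%, and in the lower direction 11.4%. Bright genes were called more often. At or above the median mean signal 10 of 23 members were called, against 35.3% of all genes there, and under it 1 of 10 members, against 7.6% of all genes there. A called change of 2-fold or more was seen in 7 members, where 3.3% of all genes had one. All 7 were among the 23 brighter members, and the share of such changes among bright genes alone was not computed. The groups did not overlap in 15 members, while this held for 37.6% of all genes. Without PDGF-BB array 1, PDGF-BB array 2 or control array 2, 4 rather than 7 members were called lower. The median log2 change of the members was -0.01, beside -0.02 over all genes.

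**Figure D1:**
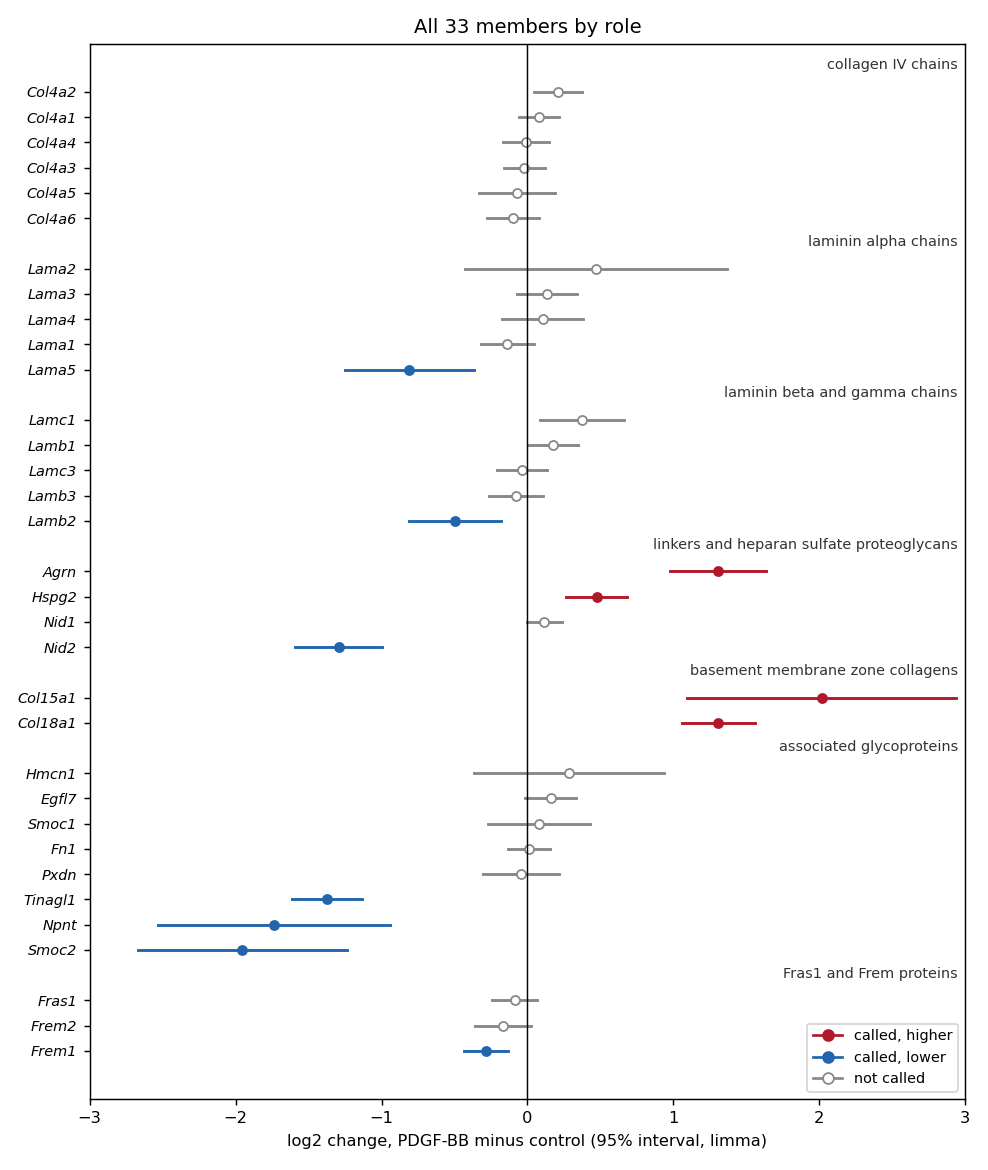
Log2 change (PDGF-BB minus control) of each of the 33 members with its 95% interval from limma, grouped by role; filled points were called and open points were not. The 4 red points on the right are the proteoglycans Col15a1, Col18a1, Agrn and Hspg2, and the type IV collagen chains lie between -0.10 and 0.21.

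The promoter windows of the 4 genes that rose together, and of Col4a1, are shown because the first set moved 1 way and the last gene shares its start region with Col4a2. They span 250 bases before to 50 bases after the annotated start, from RefSeq on GRCm38.p6, and 22 of the 33 members had such a window. Capitals mark GC boxes, the letters GGGCGG on either strand, overlapping matches included; where a gene has several windows the first listed is printed.
Agrn (chr4:156197439-156197738, minus strand): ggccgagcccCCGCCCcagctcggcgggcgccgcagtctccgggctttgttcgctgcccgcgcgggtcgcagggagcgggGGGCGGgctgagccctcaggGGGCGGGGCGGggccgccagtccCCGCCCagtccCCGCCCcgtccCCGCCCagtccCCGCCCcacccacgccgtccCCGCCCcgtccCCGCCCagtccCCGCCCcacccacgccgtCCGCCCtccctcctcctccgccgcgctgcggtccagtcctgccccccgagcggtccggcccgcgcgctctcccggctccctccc
Hspg2 (chr4:137468553-137468852, plus strand): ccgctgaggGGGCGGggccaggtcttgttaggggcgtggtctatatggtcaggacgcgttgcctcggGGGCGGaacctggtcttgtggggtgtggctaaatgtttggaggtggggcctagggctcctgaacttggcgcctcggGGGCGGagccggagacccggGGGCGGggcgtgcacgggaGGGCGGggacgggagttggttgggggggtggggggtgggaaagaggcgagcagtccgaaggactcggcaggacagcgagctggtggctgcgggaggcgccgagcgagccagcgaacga
Col18a1 (chr10:77166481-77166780, minus strand): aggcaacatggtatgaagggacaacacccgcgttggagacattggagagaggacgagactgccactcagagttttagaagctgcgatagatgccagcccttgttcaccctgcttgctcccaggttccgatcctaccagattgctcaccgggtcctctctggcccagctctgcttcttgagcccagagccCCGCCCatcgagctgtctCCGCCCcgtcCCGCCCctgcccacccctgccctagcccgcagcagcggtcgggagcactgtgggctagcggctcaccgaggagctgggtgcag
Col15a1 (chr4:47207762-47208061, plus strand): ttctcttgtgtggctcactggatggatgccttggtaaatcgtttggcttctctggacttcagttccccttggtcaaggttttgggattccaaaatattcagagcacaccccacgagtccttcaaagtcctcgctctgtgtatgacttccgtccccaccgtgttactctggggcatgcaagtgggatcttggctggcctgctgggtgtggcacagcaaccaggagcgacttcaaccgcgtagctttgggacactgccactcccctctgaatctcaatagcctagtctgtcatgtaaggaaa
Col4a1 (chr8:11312777-11313076, minus strand): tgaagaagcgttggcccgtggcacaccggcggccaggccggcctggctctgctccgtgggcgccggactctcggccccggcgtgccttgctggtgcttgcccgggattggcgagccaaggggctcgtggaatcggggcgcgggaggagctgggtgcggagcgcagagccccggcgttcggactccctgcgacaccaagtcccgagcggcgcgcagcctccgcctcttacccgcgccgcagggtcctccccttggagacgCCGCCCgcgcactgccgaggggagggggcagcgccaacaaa
Agrn had 12 GC boxes in this window, Hspg2 5, Col18a1 3, Col4a1 1 and Col15a1 0. Among members that fell, the first listed window held 4 in Lama5 and Npnt and 0 in Tinagl1, Lamb2 and Frem1, while the second window of Tinagl1 held 4 and that of Npnt 0. Among genes that rose, the second window held 2 in Agrn and 0 in Col18a1. Nid2 and Smoc2 had no window. A GC box occurred in 16 of 30 member windows, beside 35.7% of 32851 windows of all genes. Member windows were also richer in G and C, with a median of 61.0% against 52.7% over all windows. The part of this richness in the GC box share was not tested. The letters CCAAT occurred in 10 member windows (37.4% of all windows). A CArG box, CC and GG around a run of A or T, occurred in 1 (1.63%). The AP-1 letters TGANTCA occurred in 1 member window (7.81% of all windows) and the FoxO letters GTAAACA in 1 (3.65%), each read on both strands. These matches are letters in a window and are not binding sites.

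Collagens XV and XVIII are relatives that sit where the basement membrane meets the surrounding stroma, and both carry glycosaminoglycan chains and release an endostatin-type fragment. Col15a1 (Entrez gene 12819) measured 9.62, 10.93 and 11.28 on the PDGF-BB arrays 1, 2 and 3, against 8.43, 8.66 and 8.69 on the control arrays. Every PDGF-BB array exceeded every control array, with PDGF-BB array 1 well below the others of its group. Its log2 change of 2.02 (SE 0.39, 95% interval 1.10 to 2.94, adjusted p = 0.012, limma) was the largest increase of the set. Col18a1 (Entrez gene 12822), the collagen XVIII precursor of endostatin, measured 11.02, 11.35 and 11.12 with PDGF-BB and 9.94, 9.93 and 9.70 in control. The groups were far apart relative to their spread (log2 change 1.31, SE 0.11, adjusted p = 9.0e-04, limma), and the same-numbered arrays differed by 1.08, 1.42 and 1.42.

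Agrin is a heparan sulfate proteoglycan known for clustering acetylcholine receptors at the nerve-muscle synapse and is also found in capillary basement membranes. Agrn (Entrez gene 11603) measured 11.43, 11.54 and 10.99 with PDGF-BB, against 10.08, 10.03 and 9.93 in control. The groups did not overlap, and the log2 change was 1.31 (SE 0.14, adjusted p = 0.0018, limma). Hspg2 (Entrez gene 15530) encodes perlecan, the large heparan sulfate proteoglycan that binds growth factors and links the laminin and collagen networks. It measured 12.05, 11.98 and 12.26 with PDGF-BB and 11.55, 11.61 and 11.70 in control. This change was smaller than those of the other proteoglycans, at 0.48 (SE 0.09, adjusted p = 0.010, limma), and was present in every numbered pair (0.50, 0.36 and 0.56). All 4 proteoglycan genes kept their call when any 1 array was left out.

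Nidogen 1 and nidogen 2 are related rod-shaped proteins that bind the laminin γ1 chain and type IV collagen. Nid2 (Entrez gene 18074) measured 11.27, 11.16 and 11.60 with PDGF-BB, against 12.66, 12.76 and 12.49 in control. Each PDGF-BB array lay below the control array of its number (-1.40, -1.60 and -0.89), with a log2 change of -1.29 (SE 0.13, adjusted p = 0.0015, limma). Nid1 (Entrez gene 18073) was among the brightest members, at 13.33 on average with PDGF-BB and 13.21 in control. Its groups did not overlap, but the log2 change of 0.12 (95% interval -0.0038 to 0.23) missed the threshold (adjusted p = 0.17, limma).

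Of the laminin α chains, Lama5 (Entrez gene 16776), which pairs with γ1 in adult epithelial and vessel basement membranes, measured 9.33, 8.87 and 9.37 with PDGF-BB and 9.68, 10.04 and 10.29 in control. The groups were separate and came closest at control array 1. Its log2 change was -0.81 (SE 0.19, adjusted p = 0.023, limma), and the adjusted p was 0.050, 0.055, 0.068 and 0.062 without PDGF-BB array 1, PDGF-BB array 2, control array 2 and control array 3. Lama4, the α chain typical of endothelial basement membranes, measured 12.05 ± 0.17 with PDGF-BB and 11.94 ± 0.17 in control (SD, n = 3 each); its log2 change was 0.11, with an interval from -0.17 to 0.38. Lama2, the α chain of muscle and nerve, was the most variable laminin. It measured 8.45, 9.77 and 9.17 with PDGF-BB and 8.46, 9.28 and 8.23 in control, so array 2 was the highest in both groups, and its change of 0.47 had an interval of -0.43 to 1.37. Lama1, an embryonic chain, and Lama3, an epithelial chain, lay under the background level, with changes of -0.14 and 0.13, and neither was called.

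Lamb2 (Entrez gene 16779), the β chain of the synaptic and kidney glomerular basement membranes, measured 10.997, 11.13 and 11.19 with PDGF-BB, against 11.30, 11.81 and 11.68 in control. The groups did not overlap, and its log2 change was -0.49 (SE 0.13, adjusted p = 0.039, limma). This call was lost when any 1 of 5 arrays was omitted, all but control array 1, with an adjusted p of up to 0.12. Lamb1, the widely expressed β chain, measured 11.94 ± 0.10 with PDGF-BB and 11.76 ± 0.07 in control (log2 change 0.17, adjusted p = 0.15, limma). Lamc1 (Entrez gene 226519), the γ chain of most laminins, measured 11.57, 11.81 and 11.91 with PDGF-BB and 11.20, 11.57 and 11.40 in control, where the groups touch at 11.57. It was not called (log2 change 0.37, adjusted p = 0.073, limma) but passed with the array number as a block (adjusted p = 0.019), with pair differences of 0.37, 0.24 and 0.52. That block fit called 23.4% of all genes and 12 members, the 11 above and Lamc1. Lamb3, part of an epithelial laminin, and Lamc3 had log2 changes of -0.08 and -0.04.

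No chain of type IV collagen was called in limma, and 1 of the 6, Col4a2, had an unadjusted p under 0.05. Col4a1 and Col4a2, which form the common trimer of nearly all basement membranes, are transcribed head to head, and in RefSeq their annotated starts lie 21 bases apart on opposite strands. The plus-strand Col4a2 start has the lower coordinate, so the annotated transcripts overlap at their starts. Col4a1 measured 10.62 ± 0.05 with PDGF-BB and 10.54 ± 0.04 in control (SD, n = 3 each), and its log2 change was 0.08 (95% interval -0.06 to 0.21). Col4a2 measured 11.02, 11.09 and 11.14 with PDGF-BB, against 10.79, 10.97 and 10.86 in control. These groups did not overlap, yet the change of 0.21 (interval 0.05 to 0.38) missed the threshold after adjustment (adjusted p = 0.073, limma). The minor chains Col4a3, Col4a4, Col4a5 and Col4a6, found in the kidney and other specialised membranes, had mean signals of 7.71 to 8.66 and log2 changes between -0.10 and -0.01.

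The associated glycoproteins held the largest decreases. Smoc2 (Entrez gene 64074), a SPARC-related calcium-binding protein, measured 8.63, 8.55 and 8.49 with PDGF-BB, against 9.76, 11.08 and 10.69 in control. The PDGF-BB arrays lay close together while the control arrays spread widely, array 1 being the lowest (log2 change -1.95, SE 0.30, adjusted p = 0.0053, limma). Its relative Smoc1 measured 11.19 ± 0.27 with PDGF-BB and 11.11 ± 0.17 in control, a change of 0.08. Npnt (Entrez gene 114249) encodes nephronectin, an integrin ligand first known from kidney development, and measured 10.09, 8.88 and 10.02 with PDGF-BB and 11.79, 11.12 and 11.27 in control. Array 2 was the lowest in both groups, and every pair fell (-1.70, -2.25 and -1.26; log2 change -1.73, SE 0.34, adjusted p = 0.012, limma). Tinagl1 (Entrez gene 94242), a matricellular protein related to the tubulointerstitial nephritis antigen, measured 10.66, 10.70 and 10.68 with PDGF-BB, against 11.85, 12.07 and 12.25 in control. It had the smallest adjusted p of the set (log2 change -1.37, SE 0.10, adjusted p = 7.2e-04, limma).

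**Figure D2:**
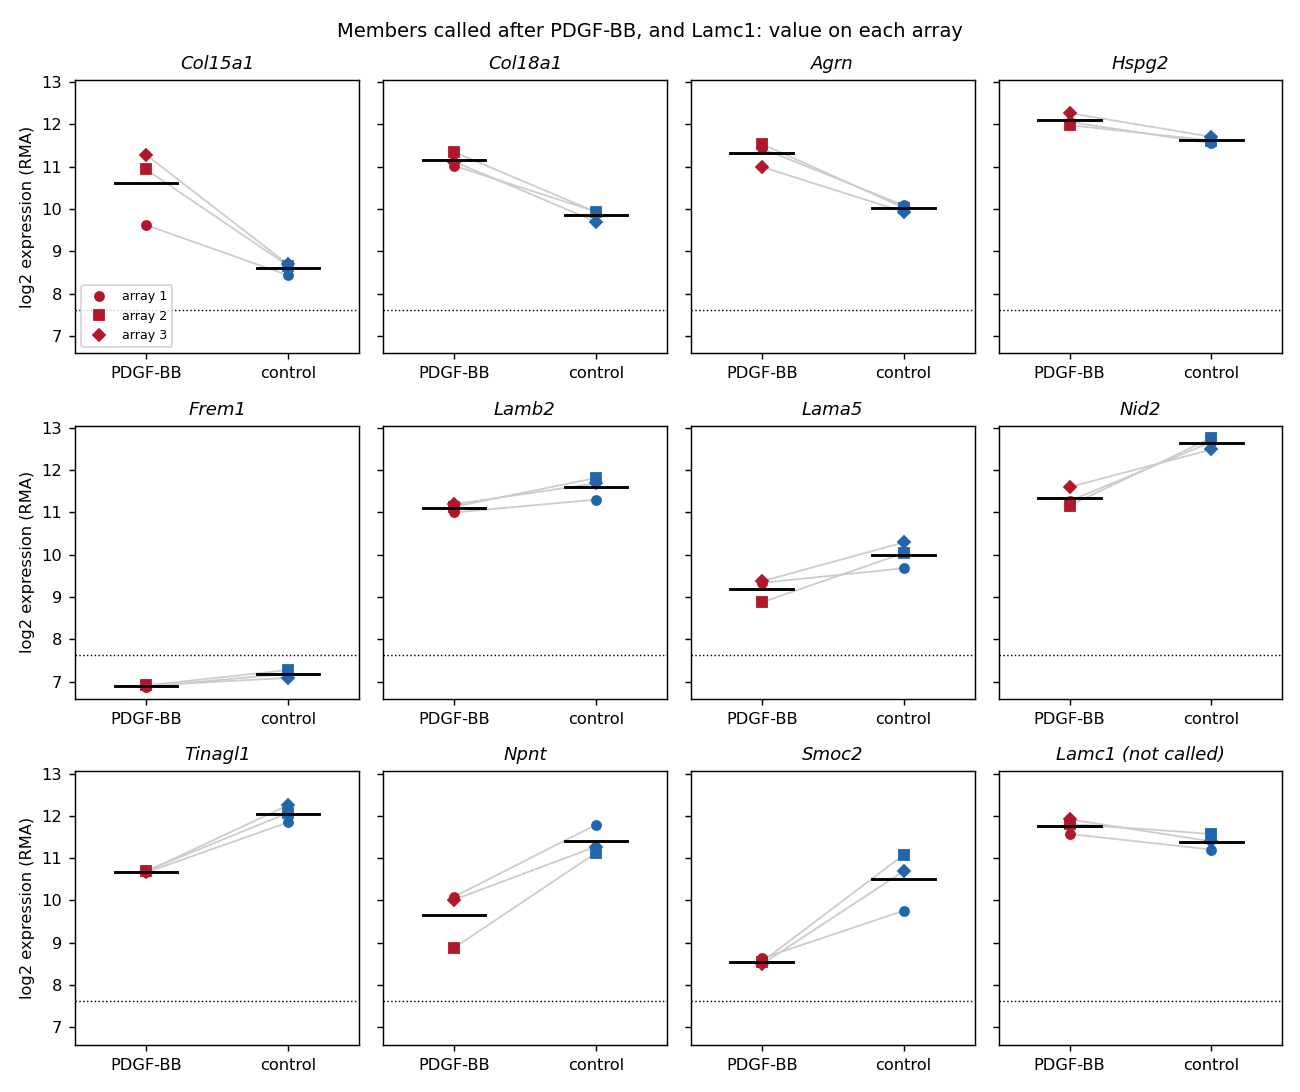
Log2 expression on each array for the 11 called members and Lamc1, with PDGF-BB in red on the left and control in blue on the right; bars are group means, grey lines join arrays of the same number and the dotted line is the background level of 7.62. Col15a1 with PDGF-BB and Smoc2 in control show the wide spread of single groups, and both Frem1 groups lie under the dotted line.

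Fibronectin, Fn1, which cells assemble into fibrils beside the basement membrane, was the brightest member and measured 13.78 ± 0.05 with PDGF-BB and 13.77 ± 0.06 in control (log2 change 0.01, interval -0.13 to 0.16). Pxdn, peroxidasin, which makes the covalent bonds of the type IV collagen network, had a log2 change of -0.04 (-0.30 to 0.22). Egfl7, a secreted protein best known from endothelium, had one of 0.16 (-0.02 to 0.34), without overlap between groups. Hmcn1, the fibulin-related hemicentin 1, measured 8.37, 8.002 and 9.20 with PDGF-BB and 8.17, 8.35 and 8.21 in control, with PDGF-BB array 3 far above the rest, and had a change of 0.28 (interval -0.37 to 0.93). Fras1, Frem1 and Frem2 form a complex that anchors the epidermis to the dermis in the embryo, and Fras1, under the background level in both groups, and Frem2, under it with PDGF-BB (7.58), were not called. Frem1 was the only one called (log2 change -0.28, adjusted p = 0.021, limma), but both of its means, 6.90 with PDGF-BB and 7.18 in control, lay under the background level, so no fold is given. The Frem1 call was lost without any 1 of the PDGF-BB arrays or control array 2 (adjusted p = 0.057 to 0.070). Of the 19 members above the background level that were not called, 16 had an interval inside a 1.5-fold change in either direction; the exceptions were Lama2, Hmcn1 and Lamc1. The other 3 not called, Lama1, Lama3 and Fras1, lay under that level, where a change may go unseen. A change may also go unseen in Col4a3, Col4a4, Col4a6, Lamb3 and Frem2, which are among the 16. These were dimmer than Cd3e, a marker taken as absent.

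To describe related members within the same array, 5 pairs were compared by subtracting the log2 value of one member from that of the other. Nid2 minus Nid1 was -2.16 to -1.73 with PDGF-BB and -0.71 to -0.45 in control, a shift of -1.41. Lama5 minus Lama4 shifted by -0.91, Lamb2 minus Lamb1 by -0.67 and Smoc2 minus Smoc1 by -2.03. In these 4 comparisons the groups did not overlap, nor did they for Col4a2 minus Col4a1, where the shift was 0.13. Each gave p = 0.1 in a two-sided exact permutation test, 0.1 also after Benjamini-Hochberg adjustment over the 5, and 0.1 is the smallest value that 3 arrays against 3 allow. The pairs were picked with the values known, and the first 4 set a called member against one not called. The comparison therefore cannot decide whether related members changed unequally.

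**Figure D3:**
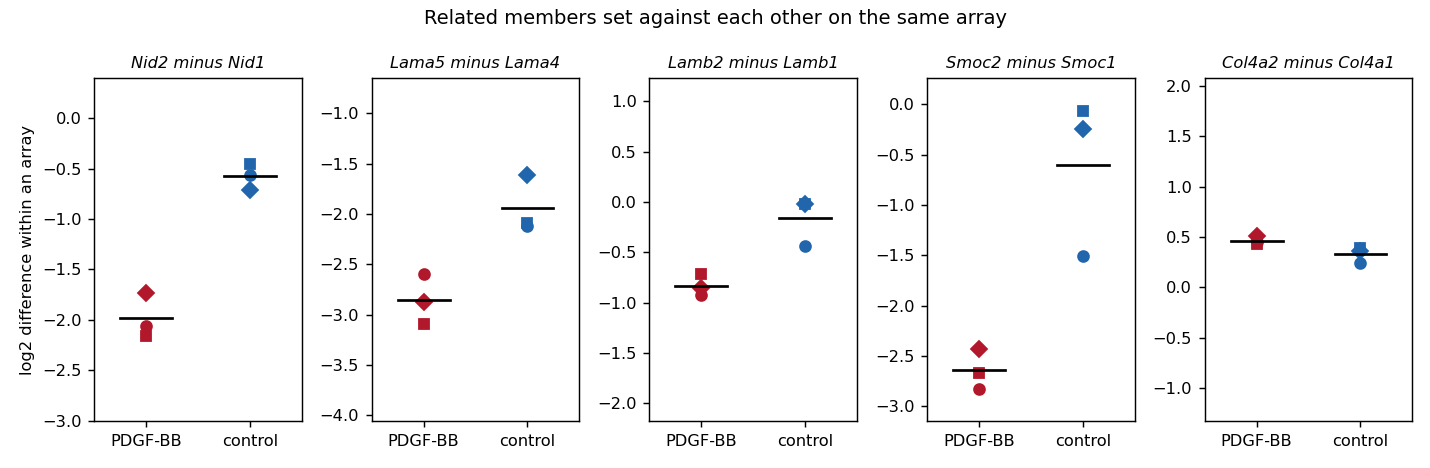
Difference in log2 value between 2 related members on the same array, PDGF-BB (red, left) and control (blue, right); circles, squares and diamonds are arrays 1, 2 and 3, bars are group means, and all panels span the same range of log2 units. The PDGF-BB arrays lie below the control arrays in the first 4 panels and slightly above them for Col4a2 minus Col4a1.

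A further 4 lists cover the rest of basement membrane biology. Over all genes 10.1% were called higher and 11.4% lower, and 35.3% of genes at or above the median mean signal were called. The list counts below were not tested against these shares. Among 16 other components 2 fell and 0 rose in limma (3 had an unadjusted p under 0.05): Ecm1, extracellular matrix protein 1 (log2 change -0.34), and Egfl6 (-0.48), whose means were under the background level. Fbln2, fibulin 2, had -0.54 (adjusted p = 0.12, limma) and passed with the array number as a block (adjusted p = 0.019), lower in every pair (-0.47, -0.86 and -0.30). Of 13 genes for folding, modifying and exporting collagen, 3 rose and 1 fell. Plod1 and Plod3, lysyl hydroxylases, rose 1.77-fold and 1.24-fold, whereas P4ha3, a prolyl 4-hydroxylase subunit, was 6.40-fold lower. Of 14 receptors 1 rose and 4 fell: Itga2, the α2 integrin subunit, rose 1.55-fold, and Itga1, the α1 subunit that binds type IV collagen, and Ddr1, a collagen receptor kinase, were 5.96-fold and 2.10-fold lower. Itga2 in control (8.17) and Itga1 with PDGF-BB (8.15) were dimmer than Cd3e, a marker taken as absent, so these 2 folds are uncertain. The remaining receptors that fell were Itga3 and, just under the threshold, Sdc2 (adjusted p = 0.0498, limma). Itgb1 and Dag1, the β1 integrin and dystroglycan, had changes of 0.04 and -0.04. Of 16 genes for degradation and heparan sulfate trimming 4 rose and 3 fell. Mmp10, stromelysin 2, rose 2.54-fold and Plat, tissue plasminogen activator, 1.38-fold, while the inhibitor Timp3, which is bound in the matrix, and the protease Adamts1 were 2.20-fold and 1.27-fold lower. The inhibitor Timp1 (1.40-fold) and the protease Ctsl (1.21-fold) also rose, and the inhibitor Timp2 was 1.17-fold lower. Thus proteases and inhibitors were each called in both directions. The control mean of Mmp10 (8.15) was dimmer than that of Cd3e. With the array number as a block 6 genes of the degradation list rose and 4 fell, Timp2 no longer among them (adjusted p = 0.061). Hpse and Mmp3 were added to those that rose, and Plau and Sulf1 to those that fell. Hpse, heparanase, had the largest log2 change of that list, 1.42, and rose in every pair (1.36, 1.26 and 1.65), though its groups overlapped. Its adjusted p in limma was 0.079 without the block and 6.8e-04 with it. In the block fit 5 receptors fell, Itga7 being added (adjusted p = 0.036). Several of these counts turned on 1 array. When any 1 array other than control array 1 was left out, 1 other component fell. That was Egfl6, under the background level, and the Ecm1 call was lost. Of the folding genes 1 rose without PDGF-BB array 1 and 6 without control array 1. Itga2 was not called without PDGF-BB array 1 or any 1 control array, and 2 receptors fell without PDGF-BB array 2 or control array 1 or 2. Of the degradation genes 2 rose without PDGF-BB array 1, PDGF-BB array 2 or control array 3, and 1 fell without control array 3. The list medians were -0.04, 0.21, -0.08 and 0.13 in the order given, beside -0.02 over all genes.

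**Figure D4:**
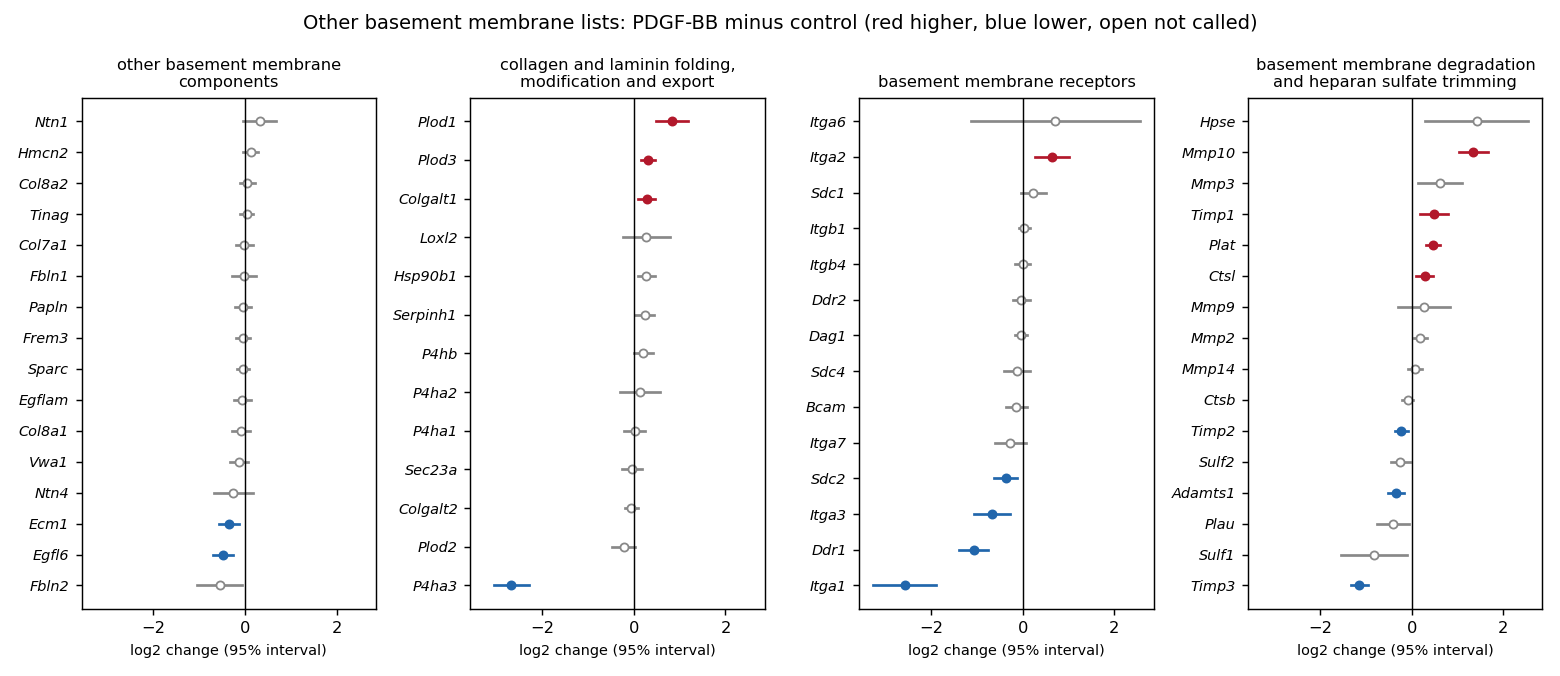
Log2 change (PDGF-BB minus control) with 95% interval for every measured gene of the 4 further lists; red was called higher, blue called lower, and open points were not called. P4ha3 and Itga1 lie farthest to the left, at -2.68 and -2.58.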

How the data were processed

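The file deposited by the authors holds log2 values of 21225 probe sets on 6 arrays, and RMA is named in the submitters' processing notes; its software, version and probe set definition were not stated. GEO's platform annotation gives 20239 probe sets 1 gene symbol and 986 none, and all 20239 Entrez numbers were found in RefSeq's GRCm38.p6 gene table. Groups and numbers came from the sample titles. The model was limma 3.58.1 in R 4.3.3 (lmFit, eBayes, group as the only factor, no filter on dim genes, two-sided, Benjamini-Hochberg), tested on simulated data first. A fold is 2 raised to the size of the log2 change. Exact tests used scipy 1.17.1.

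The members, the lists and the choice of named genes (all members; up to 4 genes with the smallest p of each other list, up to 2 in each direction where calls went both ways) were made with earlier results of these data known; genes named outside that rule were chosen after their values were seen. Of 145 genes on the other lists 133 were measured. Across genes, deviations from group means correlated at 0.25, 0.32 and 0.25 between the PDGF-BB and control arrays numbered 1, 2 and 3, and at -0.28 to 0.01 where numbers differed, which met the criterion for pairing (every same-number correlation over 0.1). The reported calls and the exact tests are nevertheless unpaired; a fit with the number as a block was an alternative, as were repeated quantile normalization, median centring, filters at the 25th and 50th percentile of signal, a trended robust spread, all probe sets, and leaving out each array. Arrays have no read depth, and 3 per group limits the precision; RMA hides changes in total RNA per cell. No scan date was used.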

Additional observations from a re-analysis of the deposited data

How the results depend on the processing

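No member changed direction past the threshold under any alternative run. All 11 calls of members held under the repeated quantile normalization, median centring, the trended robust spread, the 25th percentile filter, all probe sets and the replicate block, which added Lamc1 as a 5th higher member; 10 were left with the 50th percentile filter, which removes Frem1. The number higher stayed at 4 without any 1 array, while the number lower ranged from 4 to 7 and was 4 without PDGF-BB array 1, PDGF-BB array 2 or control array 2; 8 of the 11 calls held in every such fit, the others being Lama5, Lamb2 and Frem1. Over all genes the number lower ranged from 1514 to 2188. The members' median was 0.034 after repeated quantile normalization and 0.080 with the 50th percentile filter, and -0.015 to 0.031 without 1 array; the filter takes out dim members. With either filter 1 other component was lower. After median centring, and with all probe sets, 3 rather than 4 receptors were lower. Without 1 array, 1 to 2 other components were lower, 1 to 6 folding genes higher, 0 to 1 receptors higher, 2 to 4 receptors lower, 2 to 4 degradation genes higher and 1 to 4 lower. The blocked fit changed the call of no other member.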
